A study of Rattus norvegicus with 6 samples.

Results

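Genes of the cilium were compared between rat endometrial epithelial organoids (rEEOs) and rat bone marrow mesenchymal stem cells (rBMSCs). The genes were chosen by symbol: a fixed pattern took parts of the motile machine (Foxj1, Rfx, Dnah, Dnai, Dnal, Dnaaf, Cfap, Rsph, Spag, Spef, Tekt, Drc and related names) and those of the primary cilium (Ift, Bbs, Ttc, Wdr, Tctn, Mks1, Arl13b, Kif3, Kif17, Pkd, Tulp and related names). Of 104 rows that matched the pattern, 19 had fewer than 10 reads summed over all libraries (17 motile and 2 primary). The other 85, of 13728 genes in the table, were kept. They were separated into 44 motile and 41 primary cilium genes. Genes of the pattern outside the copy of the table, such as Mcidas, Rfx1, Dnah5, Dnah9, Dnai1 and Ift122, were not analysed here.

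Bulk RNA-seq was performed on 3 rEEOs and 3 rBMSCs samples. The rEEOs were grown from glandular fragments of the uteri of 5-week-old female Sprague-Dawley rats, embedded in Matrigel under expansion medium with EGF, FGF10, noggin, Wnt3a, R-spondin-1, nicotinamide, B27, N2, insulin-transferrin-selenium, the TGF-beta receptor inhibitor A83-01 and the ROCK inhibitor Y27632. The rBMSCs were purchased cells labelled with a red fluorescent protein and grown in serum-containing DMEM/F12, and their age and sex are not given in the sources used here. Both cell types were untreated, and tissue, medium, culture format and source of the animals all differ between them and cannot be told apart. The labels do not say that the 3 samples of a group came from separate animals or cultures, so the p-values measure only the spread between these samples.

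A cilium is a hair-like projection built on a skeleton of microtubules, the axoneme. The primary cilium, which most cell types can form singly, does not beat and serves as an antenna for Hedgehog and calcium signals. Motile cilia, carried in numbers by the ciliated cells of the oviduct and of the uterine epithelium, beat because dynein motors slide the microtubules, while radial spokes and a central pair set the rhythm. Both kinds are built by intraflagellar transport (IFT), which kinesin-2 drives to the tip and dynein-2 back to the base. The genes for motile cilia are switched on by FOXJ1 and by RFX factors.

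The 6 libraries held between 10457958 and 15421501 expected counts. All 6 epithelial markers on a list were higher in rEEOs, where they summed to between 4219 and 4778 TPM (a level scaled for depth and transcript length) compared to 2.43 to 2.85 TPM in rBMSCs. All 6 mesenchymal markers were lower, with 171 to 298 TPM compared to 41095 to 43392 TPM, and no haematopoietic marker held passed 5 counts in any library. Proliferation genes stood apart in 1 library: the 7 held summed to 462 TPM in rEEOs replicate 1 and to 88.9 and 157 TPM in replicates 2 and 3, against 405 to 449 TPM in rBMSCs. The SD of log2 CPM (counts scaled to library size) between replicates had a median over all genes tested of 0.34 in rEEOs and 0.09 in rBMSCs.

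The motile cilium genes were mostly low in both cell types. More of those tested were called higher than lower in rEEOs, in part through the count filter described below. Of the 44, 31 had enough reads to be tested (10 counts or more in 3 or more of the 6 libraries). Of these, 16 were higher in rEEOs, 3 were lower and 12 were not called (edgeR's quasi-likelihood test with Benjamini-Hochberg adjustment over all 10607 genes tested, adjusted p below 0.05). Over all genes tested, 33.3% were called higher and 30.2% lower (63.4% in either direction), so the share of motile genes called higher, 51.6%, lay above that background and the share called lower, 9.68%, below it. Of the 16, 14 were higher by over 2 on the log2 scale, where 16.3% of all genes were. Of the 3 lower genes, 2 were past that size in the other direction, where 13.3% were. These large changes follow in large part from the filter: 9 of the 14 passed it through rEEOs alone, and the 2 lower genes through rBMSCs alone. Rfx2, Ccdc39 and Cfap70, also among the 14, needed their rEEOs libraries to pass it. The 16 became 10 with limma on log2(TPM + 1), which left 21 motile genes to test, and 4 with a filter of 50 counts, which left 14, and the 3 became 5 without rEEOs replicate 1.

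Some of these calls follow from how a gene passed the filter. In total, 9 of the 31 motile genes had the needed counts through rEEOs alone and 2 through rBMSCs alone (Cfap100 and Dnah8), and such genes had to differ. The other 20 were read in both cell types, meaning 10 counts or more in at least 1 library of each. Of these, 7 were higher and 1 was lower, where 28.0% and 28.8% of all genes read in both were. This split does not fully remove the part of the filter. Of the 7, Rfx2 (9, 10 and 5 counts in rBMSCs), Ccdc39 (3, 6 and 10) and Cfap70 (13, 10 and 5) needed their rEEOs libraries to pass it. So did Cfap53 (7, 11 and 9), which was not called. The median log2 fold change of these 20 was 0.64, compared to 0.015 for all genes read in both. Over all 31 it was 1.14, compared to 0.08 for all genes tested. Both medians include genes that needed their rEEOs libraries to pass, so neither can be separated from the filter. Summed over all 44 genes, the motile set reached 177, 142 and 166 TPM in the rEEOs libraries (replicates 1, 2 and 3, the order used throughout) and 123, 113.9 and 131 TPM in rBMSCs. The groups did not overlap. Radial spoke genes made up most of the gap, with means of 32.9 TPM in rEEOs and 3.26 TPM in rBMSCs. Rsph9 alone had means of 23.5 and 2.94 TPM. The 2 most abundant motile genes in each cell type were Dnal4 and Cfap36, neither of which was called.

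**Figure D1:**
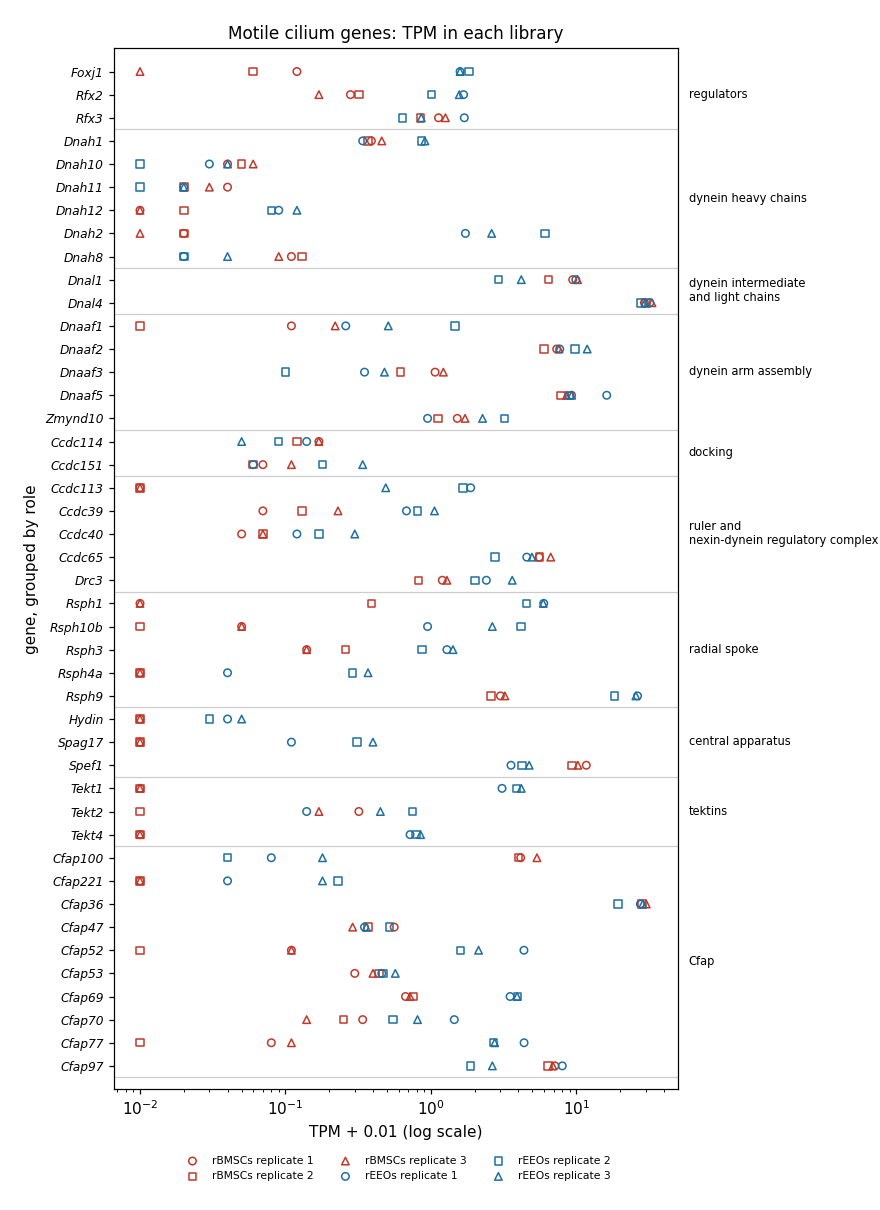
Level of each of the 44 motile cilium genes in each library, as TPM + 0.01 on a log scale, with genes grouped by role and rBMSCs in red and rEEOs in blue. The radial spoke genes, Tekt1, Tekt4, Dnah2, Foxj1 and Rfx2 show the 3 rEEOs libraries to the right of the 3 rBMSCs libraries, whereas Cfap100, Dnah8 and Spef1 show the reverse.

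Of the regulators, Foxj1, the master transcription factor of motile cilia, was read in rEEOs at 1.58, 1.82 and 1.58 TPM (33, 38 and 33 counts) and in rBMSCs at 0.11, 0.05 and 0 TPM (2, 1 and 0 counts). Every rEEOs library lay above every rBMSCs library, and the mean was at least 11.5-fold higher against a floor of 3 counts (edgeR, adjusted p = 0.000731). Foxj1 passed the filter through rEEOs alone and had to differ. Its level of 1.66 ± 0.14 TPM (SD, n = 3) was low. Rfx2, a factor that binds the X-box motif of ciliary promoters, had 1.67, 1 and 1.56 TPM in rEEOs and 0.27, 0.31 and 0.16 TPM in rBMSCs. It was higher in rEEOs by 2.73 on the log2 scale (standard error 0.36, edgeR adjusted p = 0.00081), with no overlap. Rfx3, a relative with the same kind of DNA-binding domain, had 1.69, 0.63 and 0.85 TPM in rEEOs and 1.12, 0.84 and 1.25 TPM in rBMSCs. The groups overlapped, and its log2 fold change of 0.20 (standard error 0.25) had an adjusted p of 0.503 from edgeR. With a trend on transcript length removed, Rfx3 was called higher (log2 fold change 0.85, edgeR adjusted p = 0.0103). With limma on log2(TPM + 1) its sign changed (-0.038).

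Genes held that act early in the multiciliated fate were not alike. E2f4 and E2f5, transcription factors that take part in it and also act in the cell cycle of other cells, were read in both cell types and were higher in rEEOs (log2 fold change 1.04 and 1.28, edgeR adjusted p = 0.00179 and 0.00257). Gmnc, Tp73 and Ccdc78 had at most 2 counts in any library. Ccno, a cyclin-like gene needed to multiply centrioles, matched the pattern but fell under its minimum, with 0 counts in every rEEOs library, and Deup1, a scaffold for making centrioles in bulk, had 0, 0 and 1 counts there. Of a list of 10 multiciliated cell markers, 6 were held. Summed, they gave 7.36, 8.56 and 13.7 TPM in rEEOs and at most 1.01 TPM in rBMSCs. Foxj1 gave 1.58, 1.82 and 1.58 TPM of the rEEOs sums, and most of the rest came from a single gene, Tppp3. Only Foxj1 and Tppp3 had the counts to be tested, both through rEEOs alone, so that their higher call follows from the filter, while Deup1, Ccno, Cdhr3 and Hydin had at most 7 counts in any library. In RNA from whole cultures, fewer ciliated cells and less RNA per cell cannot be told apart.

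Since RFX factors read the X-box, the promoters of the members were searched for GTTNCCAT, the left arm of that motif, and for the forkhead letters TGTTTAC, on both strands. The promoters were the 300 bases from 250 before to 50 after each RefSeq gene start of the rat assembly GRCr8. RefSeq promoters were found for 37 motile and 34 primary genes. GTTNCCAT occurred in 7 of the 37 motile promoters (18.9%) and in 1 of the 34 primary promoters (2.94%), while 4.48% of all 27457 promoters and 3.01% of those of the genes tested held it. TGTTTAC occurred in 0 of the 37 motile and 2 of the 34 primary promoters (5.88%), against 3.76% of all promoters and 2.15% of those of the genes tested. A match describes the letters only. Variants of the motif were not counted, so a promoter without a match may still hold an X-box. The shares therefore do not compare X-boxes between motile and primary genes. The stretches around 6 of the matches are shown in the direction of the gene, with the matched letters (or their reverse complement) in capitals, because they include both tested genes that were higher in rEEOs and hold the motif (Dnah2 and Tekt1), the one that was lower (Dnah8), the one with matches on both strands (Dnaaf2), a gene read in rEEOs alone (Spag17) and the only primary gene (Ift81).
Dnah2, chr10:54766048-54766087, minus strand: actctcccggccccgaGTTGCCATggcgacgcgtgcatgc
Tekt1, chr10:57479137-57479176, minus strand: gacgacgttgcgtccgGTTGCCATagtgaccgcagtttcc
Dnah8, chr20:8694391-8694430, plus strand: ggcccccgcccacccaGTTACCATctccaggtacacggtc
Dnaaf2, chr6:93406382-93406427, minus strand: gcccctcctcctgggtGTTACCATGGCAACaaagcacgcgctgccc
Spag17, chr2:189952636-189952675, plus strand: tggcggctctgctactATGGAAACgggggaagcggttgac
Ift81, chr12:39618593-39618632, plus strand: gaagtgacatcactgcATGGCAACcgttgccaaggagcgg
The matches began 45 bases before the gene start in Dnah2, 39 in Tekt1, 188 in Dnah8, 88 in Dnaaf2, 105 in Spag17 and 13 in Ift81. The 2 matches in Dnaaf2, 1 on each strand, overlap by their middle letters. The other matches were in Dnah12 and Hydin. Among the motile genes called higher, 2 of the 13 with a promoter held the motif.

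The dynein heavy chains, the large motor subunits of the axonemal arms, went in different directions. Dnah2, a chain of the inner arms, had 1.72, 6.09 and 2.61 TPM in rEEOs (285, 995 and 431 counts) and 1, 1 and 0 counts in rBMSCs. It was at least 200-fold higher in rEEOs (edgeR, adjusted p = 0.000325), and replicate 2 was the highest and replicate 1 the lowest. Dnah2 passed the filter through rEEOs alone and had to differ. Dnah1, another inner arm chain, had 0.33, 0.85 and 0.90 TPM in rEEOs and 0.38, 0.36 and 0.45 TPM in rBMSCs, with replicate 1 of rEEOs below all rBMSCs libraries and the other two above them (log2 fold change 1.14, standard error 0.54, edgeR adjusted p = 0.106). Without that library, the log2 fold change of Dnah1 was 1.59 (edgeR adjusted p = 0.000295). Dnah8, best known from sperm tails, was the one that was lower, with 1, 1 and 5 counts in rEEOs compared to 15, 19 and 11 in rBMSCs (log2 fold change -2.59, standard error 0.65, edgeR adjusted p = 0.0133), a call lost when a trend on transcript length was removed (edgeR adjusted p = 0.0922). Dnah8 passed the filter through rBMSCs alone, so its lower call follows from the filter. Dnah10, Dnah11 and Dnah12 had at most 11 counts in any library and were not tested.

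None of the remaining arm genes was called. Dnal4, a light chain, was among the most abundant motile genes, with 32.1, 27.9 and 29.7 TPM in rEEOs and 29.5, 30.2 and 33.2 TPM in rBMSCs. The groups overlapped, and the log2 fold change was 0.22 (standard error 0.16, edgeR adjusted p = 0.263). Dnal1, the light chain bound to an outer arm motor, had 9.93, 2.92 and 4.18 TPM in rEEOs and 9.45, 6.45 and 10.2 TPM in rBMSCs (log2 fold change -0.49, edgeR adjusted p = 0.302). Without rEEOs replicate 1 both passed the threshold in opposite directions, Dnal4 with a log2 fold change of 0.34 (edgeR adjusted p = 0.0218) and Dnal1 with -0.91 (edgeR adjusted p = 0.0242). Ccdc114 and Ccdc151, which dock the outer arm on the microtubule, had at most 8 counts in any library.

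Of the 5 assembly factors, which fold the arms in the cytoplasm, 1 of the 4 tested was called (25.0%, where 63.4% of all genes tested were). Dnaaf5 had 16.2, 8.95 and 9.29 TPM in rEEOs and 9.27, 7.88 and 8.57 TPM in rBMSCs, where rEEOs replicate 2 lay inside the range of rBMSCs (log2 fold change 0.63, standard error 0.16, edgeR adjusted p = 0.0139). That call was lost without rBMSCs replicate 2 or 3 (edgeR adjusted p = 0.0607 and 0.0625) and with limma on log2(TPM + 1) (adjusted p = 0.281). Dnaaf5 overlaps the gene Prkar1b, itself called higher in rEEOs (log2 fold change 1.11, edgeR adjusted p = 0.0462). Its reads are therefore uncertain where strand was not used. Dnaaf2, a partner of the chaperones, had 7.69, 9.81 and 11.9 TPM in rEEOs and 7.33, 6.00 and 7.61 TPM in rBMSCs, which just missed the threshold (log2 fold change 0.79, edgeR adjusted p = 0.0542). Zmynd10 (log2 fold change 0.92, edgeR adjusted p = 0.202) and Dnaaf3 (-1.35, adjusted p = 0.0726) were not called. Without rEEOs replicate 1, Dnaaf2 (edgeR adjusted p = 0.00055) and Zmynd10 (0.00633) passed the threshold, and without rEEOs replicate 3 so did Dnaaf3 (edgeR adjusted p = 0.0283). Dnaaf1 was under the filter, with 6, 35 and 12 counts in rEEOs compared to 2, 0 and 4 in rBMSCs.

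The molecular ruler CCDC39 and CCDC40 sets the repeat of the axoneme, and the nexin-dynein regulatory complex links its doublets. Ccdc39 had 0.67, 0.80 and 1.05 TPM in rEEOs and 0.06, 0.12 and 0.22 TPM in rBMSCs, higher by 2.83 on the log2 scale (standard error 0.52, edgeR adjusted p = 0.00344). Its partner Ccdc40 was too low to be tested, at 5, 7 and 11 counts in rEEOs compared to 2, 3 and 3 in rBMSCs. Of the complex, Drc3 had 2.40, 2.01 and 3.62 TPM in rEEOs and 1.19, 0.81 and 1.28 TPM in rBMSCs, with no overlap (log2 fold change 1.51, standard error 0.38, edgeR adjusted p = 0.0133, and 0.0552 without rBMSCs replicate 2). It overlaps the gene Tom1l2, which had 1048 to 2866 counts in the rEEOs libraries, so its reads are uncertain where strand was not used. Ccdc65 had 4.56, 2.75 and 4.95 TPM in rEEOs and 5.55, 5.60 and 6.67 TPM in rBMSCs, lower in every rEEOs library but not called (log2 fold change -0.29, edgeR adjusted p = 0.383). Ccdc113 had 27, 24 and 7 counts in rEEOs and none in rBMSCs.

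The radial spokes, which carry signals from the central pair to the dyneins, were read mostly in rEEOs. All 4 spoke genes tested were called higher in rEEOs, where 33.3% of all genes tested were. However, Rsph1, Rsph3 and Rsph10b had the needed counts through rEEOs alone and had to differ, and only Rsph9 was read in both cell types. None of the 4 overlapped between the groups, while 31.1% of all genes tested had every rEEOs library above every rBMSCs library in TPM. Summed over the 5 spoke genes held, the level was 34.6, 28.2 and 36.1 TPM in rEEOs and 3.17, 3.22 and 3.39 TPM in rBMSCs. Most of it came from Rsph9, a protein of the spoke head, with 26.4, 18.3 and 25.7 TPM in rEEOs and 3.00, 2.59 and 3.22 TPM in rBMSCs. Rsph9 was higher by 3.29 on the log2 scale (standard error 0.24, edgeR adjusted p = 6.7e-05).

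Rsph1, another head protein, had 53, 41 and 53 counts in rEEOs compared to 0, 3 and 0 in rBMSCs, at least 15.98-fold higher (edgeR, adjusted p = 0.00141). It overlaps Slc37a1, which had 1379, 537 and 776 counts in rEEOs compared to 1, 4 and 3 in rBMSCs, so reads of the neighbour on either strand could add to its count. Rsph10b had 0.94, 4.16 and 2.64 TPM in rEEOs and 0.04, 0 and 0.04 TPM in rBMSCs, at least 36.1-fold higher (edgeR, adjusted p = 0.00119). Rsph3, a stalk protein, had 1.28, 0.86 and 1.41 TPM compared to 0.13, 0.25 and 0.13 TPM, higher by 2.97 on the log2 scale (standard error 0.41, edgeR adjusted p = 0.00106). The fifth, Rsph4a, had at most 11 counts in rEEOs and none in rBMSCs.

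The tektins are filaments inside the doublet microtubules, and both that were tested passed the filter through rEEOs alone. Tekt1 had 3.08, 3.87 and 4.18 TPM in rEEOs (42, 53 and 57 counts) against none in rBMSCs, at least 17-fold higher (edgeR, adjusted p = 0.000908). Tekt4 had 11, 12 and 13 counts in rEEOs against none in rBMSCs, at least 3.99-fold higher (edgeR, adjusted p = 0.00236). Tekt2 was under the filter in both cell types, with at most 11 counts.

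Of 3 genes of the central apparatus, 2 were read in rEEOs alone and 1 was lower there. Hydin and Spag17, both large proteins of the central pair, had no count in rBMSCs and only 6, 4 and 7 (Hydin) and 9, 27 and 35 counts (Spag17) in rEEOs, and neither could be tested. Spef1, which binds and bundles microtubules and also occurs outside cilia, was the only one tested. It had 3.55, 4.22 and 4.74 TPM in rEEOs and 11.7, 9.34 and 10.3 TPM in rBMSCs (log2 fold change -1.40, standard error 0.21, edgeR adjusted p = 0.00152), so that all rEEOs libraries lay below all rBMSCs libraries.

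Of the 10 Cfap genes, a family named for cilia and flagella associated proteins with little else in common, 9 were tested. Cfap52 and Cfap77, proteins of the microtubule lumen, were read almost only in rEEOs. Their higher calls follow from the filter, which both passed through rEEOs alone. Cfap77 had 78, 48 and 49 counts there and at most 1.41 in rBMSCs, at least 18.5-fold higher (edgeR, adjusted p = 0.000143). Cfap52 had 107, 39 and 52 counts in rEEOs compared to 2, 0 and 2 in rBMSCs, at least 20.3-fold higher (edgeR, adjusted p = 0.000619). Cfap69 and Cfap70 were higher too, by 2.70 and 2.14 on the log2 scale (edgeR, adjusted p = 0.000227 and 0.00512).

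Cfap100, a regulator of the inner arms, went the other way and was the most reduced motile gene tested. It passed the filter through rBMSCs alone and had to differ. It had 2, 1 and 5 counts in rEEOs compared to 107, 109 and 132 in rBMSCs, or 0.07, 0.03 and 0.17 TPM compared to 4.14, 4.00 and 5.36 TPM (log2 fold change -5.37, standard error 0.52, edgeR adjusted p = 0.000224). Cfap36, which is expressed beyond ciliated cells and was the most abundant Cfap gene, had 27.7, 19.4 and 28.7 TPM in rEEOs and 27.7, 28.4 and 30.3 TPM in rBMSCs (log2 fold change 0.07, edgeR adjusted p = 0.761). Cfap97 had 8.01, 1.87 and 2.64 TPM in rEEOs and 7.13, 6.38 and 6.90 TPM in rBMSCs, so that replicate 1 lay above and replicates 2 and 3 below all rBMSCs libraries (log2 fold change -0.59, edgeR adjusted p = 0.268, and -1.21 with adjusted p = 0.00222 without replicate 1). Cfap47 and Cfap53 were not called, and Cfap221 was not tested, with no count in rBMSCs and at most 8 in rEEOs.

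**Figure D2:**
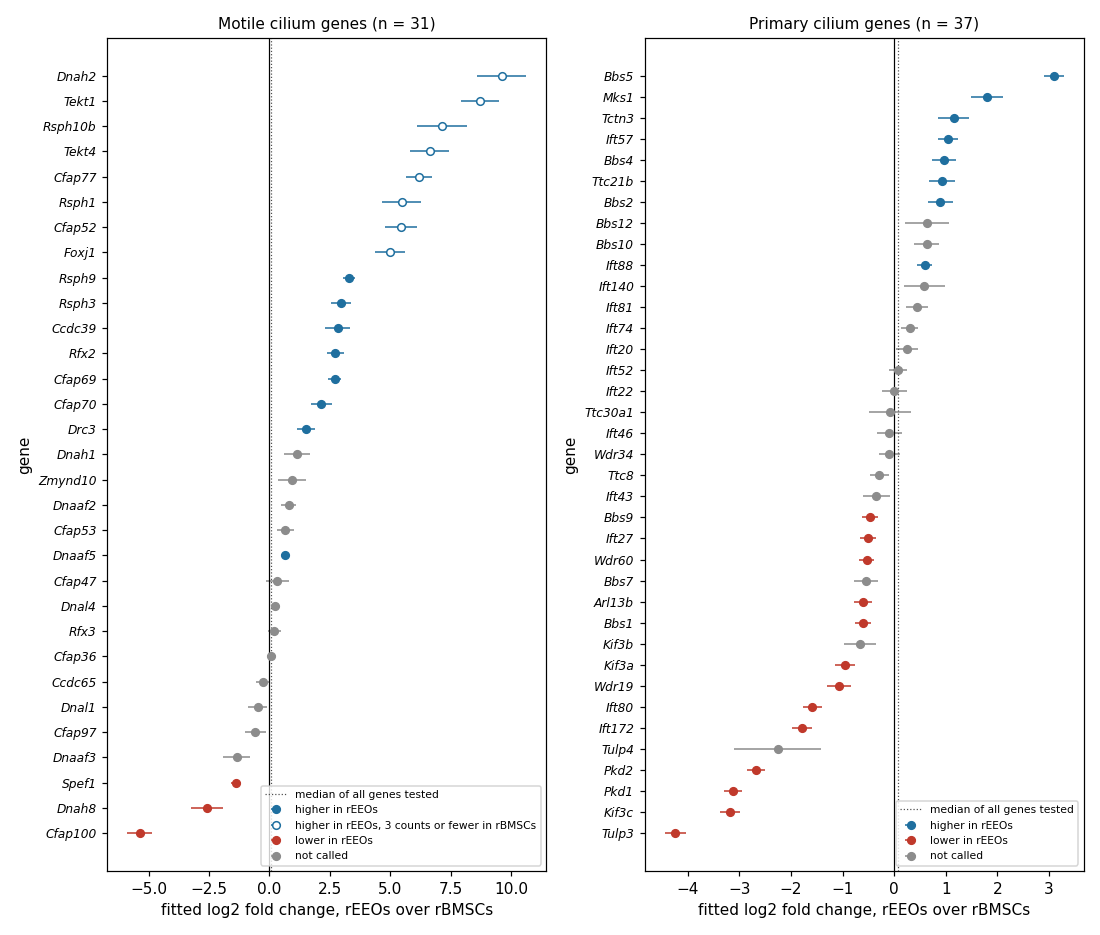
Fitted log2 fold change of tested genes, rEEOs over rBMSCs, with bars of 1 standard error, for 31 motile genes on the left and 37 of the 39 primary genes on the right. Motile genes run from -5.37 (Cfap100) to 9.62 (Dnah2), primary genes from -4.24 (Tulp3) to 3.09 (Bbs5), and open symbols mark genes with 3 counts or fewer in every rBMSCs library, whose fitted value is not a bound on the fold.

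The primary cilium genes were read in both cell types at higher levels, and more of them were lower than higher in rEEOs. All 39 of those tested reached 10 counts in at least 1 library of each cell type. In total, 8 were higher in rEEOs, 13 were lower and 18 were not called (edgeR's quasi-likelihood test as above), shares of 20.5% and 33.3% against a background of 33.3% and 30.2% over all genes tested. The share called lower was thus near the background. Past a log2 fold change of 2 there were 1 higher gene (Bbs5) and 4 lower genes (Tulp3, Kif3c, Pkd1 and Pkd2). The median was -0.28, compared to 0.08 for all genes. The split between directions moved with the scaling: it became 12 higher and 6 lower with library size as the only scaling, and 5 and 15 with limma on log2(TPM + 1), where the median over all genes was 0.46 and -0.22 in place of 0.08. Without rEEOs replicate 1, 13 were higher and 18 lower, without rBMSCs replicate 1 these were 4 and 8, without rBMSCs replicate 2 they were 4 and 9, and without rBMSCs replicate 3 they were 6 and 8. With a replicate block they were 6 and 9. Summed over all 41 genes, the level was 559, 485 and 462 TPM in rEEOs and 819, 763 and 801 TPM in rBMSCs, and 5 membrane and signalling genes made up most of the gap.

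**Figure D3:**
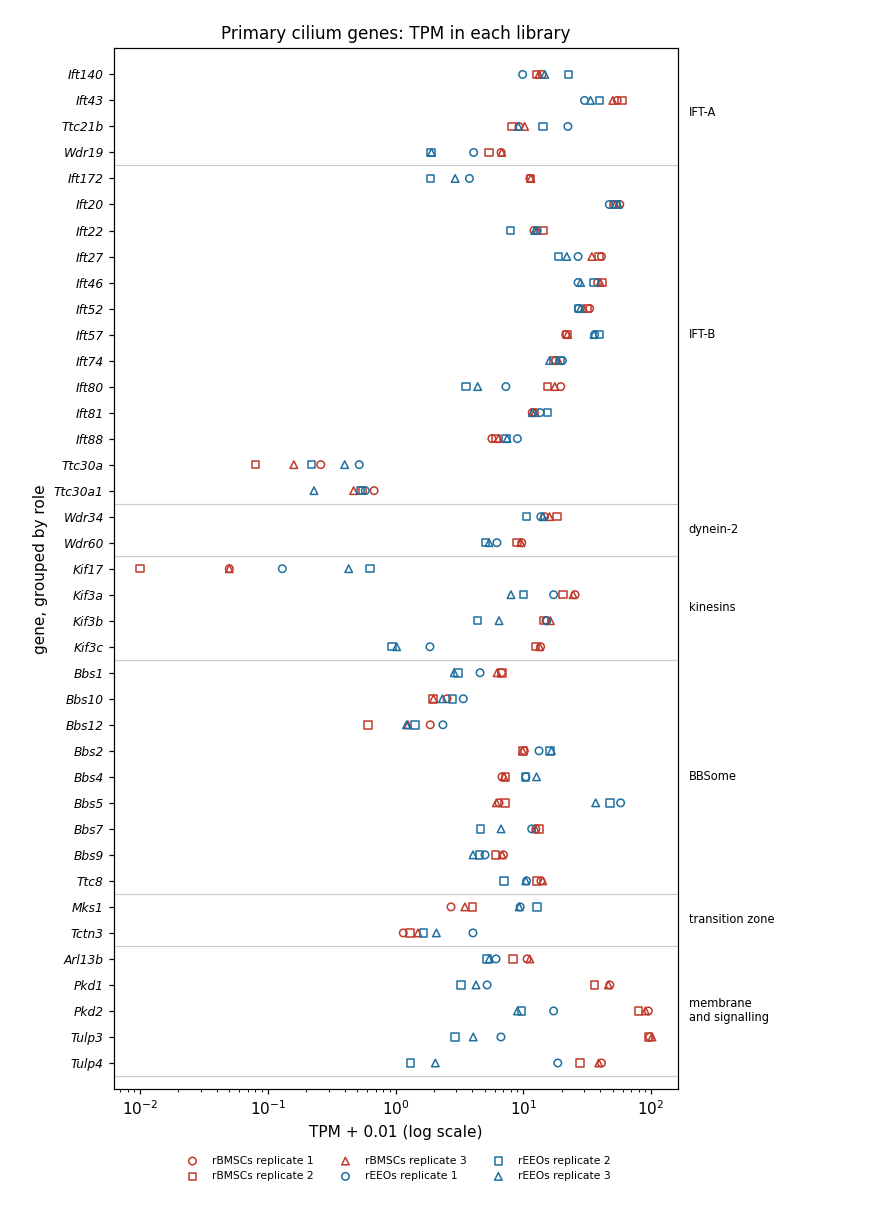
Level of 39 of the 41 primary cilium genes in each library, as TPM + 0.01 on a log scale, with genes grouped by role and rBMSCs in red and rEEOs in blue. Most transport and BBSome genes lie within a narrow range in both cell types, while Tulp3, Pkd1, Pkd2 and Kif3c lie far to the left in rEEOs and Bbs5 to the right.

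The membrane and signalling genes were lower together: 4 of the 5 were called lower in rEEOs (80%, where 30.2% of all genes tested were). All 5 had every rEEOs library below every rBMSCs library in TPM, as 38.4% of all genes tested did. Their summed level was 53.9, 22.3 and 24.8 TPM in rEEOs and 292, 248 and 289 TPM in rBMSCs. Tulp3, which carries membrane proteins into the cilium and restrains Hedgehog signalling, had 6.68, 2.91 and 4.05 TPM in rEEOs and 97.7, 95.4 and 102 TPM in rBMSCs. The resulting change of -4.24 on the log2 scale (standard error 0.21, edgeR adjusted p = 1.73e-05) was the most negative of all primary genes tested.

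Pkd1 and Pkd2, the polycystins that form a channel complex in the ciliary membrane, both fell. Pkd2 had 17.3, 9.69 and 9 TPM in rEEOs and 95.3, 80.1 and 90.5 TPM in rBMSCs, lower by 2.68 on the log2 scale in rEEOs (standard error 0.17, edgeR adjusted p = 4.36e-05). Pkd1 had 5.20, 3.24 and 4.26 TPM in rEEOs and 47.6, 36.2 and 46.4 TPM in rBMSCs, with a log2 fold change of -3.12 (standard error 0.17, edgeR adjusted p = 2.31e-05). Pkd1 overlaps Tsc2, which changed less, with a log2 fold change of -0.71. Arl13b, a small GTPase of the ciliary membrane, had 6.11, 5.20 and 5.40 TPM in rEEOs and 10.7, 8.32 and 11.2 TPM in rBMSCs (log2 fold change -0.61, standard error 0.18, edgeR adjusted p = 0.024). The call of Arl13b was lost without rBMSCs replicate 1 or 3 (edgeR adjusted p = 0.0938 and 0.109), with library size only (0.264) and with the length trend removed (0.237). Tulp4, the remaining gene, had 18.6, 1.3 and 2.04 TPM in rEEOs and 41.0, 27.9 and 38.95 TPM in rBMSCs. With rEEOs replicate 1 far above the other two, it just missed the threshold (log2 fold change -2.26, standard error 0.85, edgeR adjusted p = 0.0543).

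Of the kinesin-2 motors, which carry IFT trains to the tip, the 3 tested had lower fitted levels in rEEOs, and 2 were called. The share called lower was 66.7%, where 30.2% of all genes tested were. Kif3c, a subunit that can replace KIF3B and is best known from neurons, had 1.85, 0.93 and 1.01 TPM in rEEOs and 13.7, 12.5 and 13.4 TPM in rBMSCs (log2 fold change -3.18, standard error 0.20, edgeR adjusted p = 3.69e-05). Kif3a, the common partner, had 17.3, 10.1 and 8.00 TPM in rEEOs and 25.5, 20.5 and 24.6 TPM in rBMSCs (log2 fold change -0.95, standard error 0.19, edgeR adjusted p = 0.00527, and 0.0502 with library size only). Kif3b had 15.3, 4.39 and 6.45 TPM in rEEOs and 15.1, 14.5 and 16.3 TPM in rBMSCs and was not called (log2 fold change -0.66, edgeR adjusted p = 0.109). Here rEEOs replicate 1 lay with the rBMSCs libraries and the other two lay below, and without that replicate the log2 fold change was -1.06 (edgeR adjusted p = 0.00117). Kif17, the motor of the homodimeric kind, was not tested, with 4, 23 and 14 counts in rEEOs compared to 1, 0 and 1 in rBMSCs.

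The IFT-B train, which carries cargo outward with kinesin-2, had 12 of its 13 genes tested, with 2 higher, 3 lower and 7 not called. The shares were 16.7% higher and 25.0% lower, both below the 33.3% and 30.2% of all genes tested. The summed level of the train was 232, 231 and 225 TPM in rEEOs and 270, 263 and 259 TPM in rBMSCs. In edgeR the median log2 fold change of the 12 was 0.04. With limma on log2(TPM + 1) the median over all genes was -0.22, so the lower sum cannot be told apart from that shift. Ift57 had 36.2, 39.6 and 35.7 TPM in rEEOs and 21.5, 21.97 and 22.1 TPM in rBMSCs, higher by 1.04 on the log2 scale (standard error 0.19, edgeR adjusted p = 0.00336). Ift172, at the point where trains turn around, had 3.78, 1.87 and 2.92 TPM in rEEOs and 11.3, 11.4 and 11.5 TPM in rBMSCs (log2 fold change -1.78, standard error 0.19, edgeR adjusted p = 0.000332). It overlaps Krtcap3, which had 1234 to 1359 counts in rEEOs and at most 1 in rBMSCs, the opposite direction.

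Ift80 fell as well (log2 fold change -1.59, edgeR adjusted p = 0.000541), and Ift27 fell by 0.51 on the log2 scale (edgeR adjusted p = 0.029), while Ift88 rose by 0.59 (edgeR adjusted p = 0.0148). The 2 most abundant genes of the train were not called: Ift20, which also works at the Golgi, had 47.1, 53.3 and 55.3 TPM in rEEOs and 57.0, 51.0 and 52.7 TPM in rBMSCs, and Ift46 had 26.8, 35.7 and 28.1 TPM compared to 38.2, 41.6 and 39.9 TPM (edgeR adjusted p = 0.337 and 0.766). Without rEEOs replicate 1, Ift20 was higher by 0.46 on the log2 scale (edgeR adjusted p = 0.00377). Ift22, Ift52, Ift74 and Ift81 were not called. Ttc30a and Ttc30a1 are near-identical copies between which reads may have been split, so their separate values are uncertain. Ttc30a was not tested and Ttc30a1 was not called.

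The IFT-A train, which brings cargo back with dynein-2, was mixed. Ttc21b had 22.3, 14.2 and 9.14 TPM in rEEOs and 9.25, 8.13 and 10.2 TPM in rBMSCs, and was called higher although the groups overlapped (log2 fold change 0.93, standard error 0.24, edgeR adjusted p = 0.0154). That call was lost without rBMSCs replicate 1 or 2 (edgeR adjusted p = 0.0563 and 0.0613) and with limma on log2(TPM + 1) (adjusted p = 0.15). Wdr19 had 4.08, 1.89 and 1.90 TPM in rEEOs and 6.70, 5.39 and 6.78 TPM in rBMSCs and was lower (log2 fold change -1.08, standard error 0.23, edgeR adjusted p = 0.00721, and 0.0502 with library size only). Ift140, with 9.88, 22.6 and 14.7 TPM in rEEOs around the 12.6 to 14.0 TPM of rBMSCs, and Ift43, with 30.2 to 39.4 TPM against 50.2 to 59.2 TPM, were not called (edgeR adjusted p = 0.236 and 0.279). Ift140 passed the threshold without rEEOs replicate 1, its lowest library (log2 fold change 0.94, edgeR adjusted p = 0.00405). The groups did not overlap for Ift43 in TPM, whereas its fitted log2 fold change, which rests on TMM-scaled counts, was -0.35 (standard error 0.26), and limma on log2(TPM + 1) called it lower at -0.66 (adjusted p = 0.00866). Of the dynein-2 intermediate chains, Wdr60 had 6.21, 5.05 and 5.38 TPM in rEEOs and 9.72, 8.96 and 9.57 TPM in rBMSCs (log2 fold change -0.53, standard error 0.15, edgeR adjusted p = 0.018), and Wdr34 had 13.7, 10.6 and 14.2 TPM compared to 14.7, 18.3 and 16.02 TPM and was not called (edgeR adjusted p = 0.706). The call of Wdr60 was lost without any single rBMSCs library (edgeR adjusted p = 0.0606 to 0.0888) and with library size only (0.35).

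The BBSome, a coat that moves signalling receptors out of the cilium, was the primary group with the highest sum in rEEOs relative to rBMSCs: 119, 97.7 and 93.7 TPM in rEEOs and 67.8, 65.7 and 66.0 TPM in rBMSCs. A single subunit, Bbs5, which binds phosphoinositides, differed by more than the sum did. It had 57.8, 47.6 and 36.9 TPM in rEEOs and 6.45, 7.19 and 6.15 TPM in rBMSCs. It was higher by 3.09 on the log2 scale (standard error 0.19, edgeR adjusted p = 3.95e-05), the most of any primary gene tested.

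The other subunits had smaller fitted changes, in both directions. Bbs2 had 13.3, 16.2 and 16.6 TPM in rEEOs and 10.2, 9.98 and 9.87 TPM in rBMSCs (log2 fold change 0.89, standard error 0.24, edgeR adjusted p = 0.0162), and Bbs4 was higher by 0.97 (edgeR adjusted p = 0.0102). Bbs1 had 4.58, 3.07 and 2.87 TPM in rEEOs and 6.75, 6.78 and 6.23 TPM in rBMSCs and was lower (log2 fold change -0.61, standard error 0.15, edgeR adjusted p = 0.0126), as was Bbs9 (-0.47, edgeR adjusted p = 0.032). Bbs7, Ttc8 and the chaperonin-like genes Bbs10 and Bbs12, which help to assemble the coat, were not called. Bbs1 lost its call without any single rBMSCs library (edgeR adjusted p = 0.0521 to 0.0649) and with library size only (0.23), and Bbs2 without any single rBMSCs library or rEEOs replicate 3 (0.0533 to 0.0612).

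At the transition zone, the gate at the base of the cilium, 2 of the 4 genes tested were higher and none was lower. These shares of 50% and 0% stand beside 33.3% and 30.2% of all genes tested. Mks1 had 9.45, 12.8 and 9.28 TPM in rEEOs and 2.71, 4.00 and 3.48 TPM in rBMSCs, higher by 1.80 on the log2 scale (standard error 0.30, edgeR adjusted p = 0.00249). Tctn3 was higher by 1.15 (edgeR adjusted p = 0.0149), with 4.03, 1.64 and 2.08 TPM compared to 1.14, 1.29 and 1.49 TPM.

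**Figure D4:**
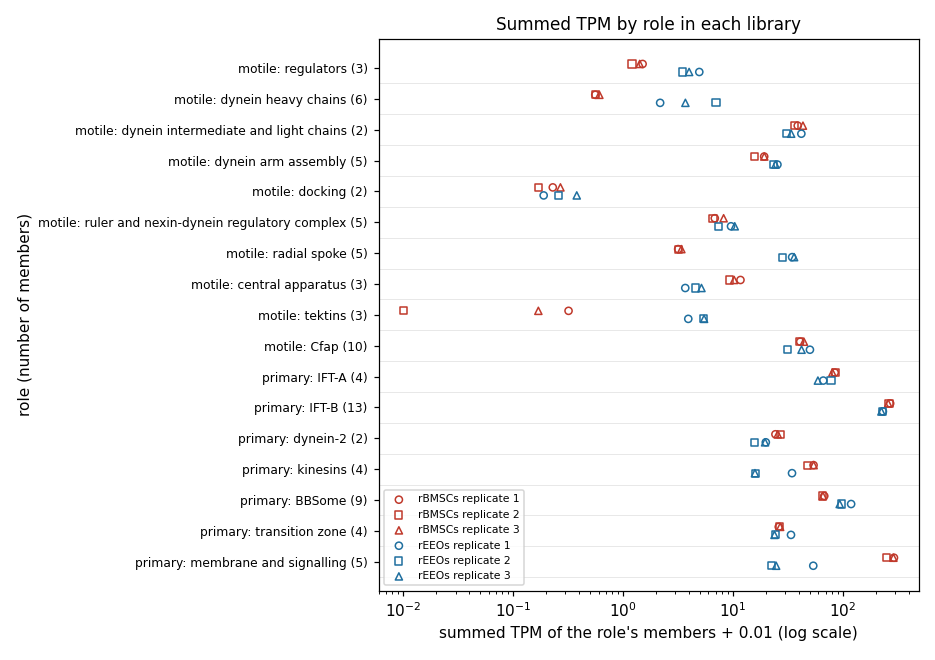
Summed TPM of the members of each role in each library, as TPM + 0.01 on a log scale, with the number of members in brackets. The radial spokes, tektins, regulators and dynein heavy chains lie to the right in rEEOs (blue). The membrane and signalling genes and the kinesins lie to the left. The IFT-B sums lie at 225 to 232 TPM compared to 259 to 270 TPM, on a scale where the median over all genes was lower in rEEOs too.

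The rest of the pathway was covered by a further list of 94 cilium genes outside the name pattern. Of these, 60 were held and 48 tested, and 14 were higher in rEEOs, 17 lower and 17 not called (edgeR's quasi-likelihood test), shares of 29.2% and 35.4%, near the 33.3% and 30.2% over all genes tested. Of the 44 read in both cell types, 10 were higher and 17 lower, where 28.0% and 28.8% of all genes read in both were. The 17 became 10 with library size only and without rBMSCs replicate 1 or 3. Among 12 tested genes of the multiciliated programme, 6 were higher and 2 lower. The 4 that passed the filter through rEEOs alone were all among the 6, and of the 8 read in both cell types 2 were higher and 2 lower, with a median log2 fold change of -0.87. Of those 4, Nme5, a radial spoke protein, had 35, 52 and 49 counts in rEEOs and none in rBMSCs, at least 15.3-fold higher (edgeR, adjusted p = 0.00126). Enkur, of the microtubule lumen, had 29, 26 and 55 counts compared to 1, 0 and 2, at least 12.3-fold higher (edgeR, adjusted p = 0.00156).

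Genes of the basal body and centriole were called higher in 3 and lower in 6 of 11 cases (27.3% and 54.5%, compared to 33.3% and 30.2% of all genes tested). Plk4, the kinase that starts centriole duplication, had 12.3, 1.44 and 1.60 TPM in rEEOs and 29.2, 24.7 and 27.3 TPM in rBMSCs (log2 fold change -2.36, standard error 0.73, edgeR adjusted p = 0.0277). That call was lost when any single library but rEEOs replicate 1 was left out (edgeR adjusted p = 0.0578 to 0.0762). Cep97, which caps centrioles, had 1.77, 0.62 and 0.59 TPM compared to 4.32, 3.72 and 3.97 TPM (log2 fold change -1.84, edgeR adjusted p = 0.00444). In both, rEEOs replicate 1, the library with the high proliferation genes, was the highest of its group, and the part of proliferation in this was not tested.

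Of 13 further genes of the transition zone and the inner compartment of the cilium, 5 were higher and 4 lower (38.5% and 30.8%, near the same background). Cc2d2a, a partner of Mks1 at the gate, moved against it, with 0.66, 0.65 and 0.30 TPM in rEEOs and 7.30, 5.74 and 6.55 TPM in rBMSCs (log2 fold change -3.36, standard error 0.32, edgeR adjusted p = 0.000206). Anks6, of the inversin compartment, had 5.68, 3.52 and 2.98 TPM compared to 16.7, 16.5 and 16.8 TPM (log2 fold change -1.85, edgeR adjusted p = 0.000178). The transport list gave 2 lower genes of 5 (40%, where 30.2% of all genes tested were). They were Kifap3, which ties KIF3A and KIF3B to cargo (log2 fold change -1.45, edgeR adjusted p = 0.00125), and Wdpcp (-1.43, edgeR adjusted p = 0.00227).

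In the ciliary Hedgehog list, 3 of 4 genes held were tested and 2 were lower (66.7%, where 30.2% of all genes tested were). Kif7, a kinesin that orders the tip of the cilium, had 1.05, 1.26 and 0.80 TPM in rEEOs and 11.2, 10.4 and 10.3 TPM in rBMSCs (log2 fold change -3.09, standard error 0.26, edgeR adjusted p = 0.000119), and Evc fell by 1.08 on the log2 scale (edgeR adjusted p = 0.00298). Gli1, a target of the pathway, had at most 4 counts in any library and was not tested. Of 4 cilium disassembly genes, 1 was lower (25.0%, below the same 30.2%). It was Kif2a, which removes tubulin from microtubule ends (log2 fold change -1.14, edgeR adjusted p = 0.00328).

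The 3 rEEOs libraries were not alike in motile genes. Replicate 1 was the lowest of the 3 in CPM for 19 of the 31 motile genes tested (61.3%, compared to 41.0% of all genes tested), and was below 0.5 times the mean of replicates 2 and 3 in 7 of them (22.6%, compared to 11.98% of all genes tested). The 7 were Rsph10b (0.21 times), Dnah1 and Zmynd10 (0.24 times each), Dnah2 (0.28 times), Dnah8, Cfap47 and Cfap100, of which Dnah8 and Cfap100 had at most 5 counts in any rEEOs library. It was above 2 times that mean for Cfap97 and Dnal1. Among the 39 primary genes it was the lowest for 16 (41.0%, the same share as over all genes), below 0.5 times the mean for 1 and above 2 times for Tulp4 (7.54 times) and Kif3b (2.02 times). This was the library with the high proliferation genes, whose part in it was not tested. Foxj1 had 1.99, 3.32 and 2.73 CPM, so that replicate 1 was the lowest there too (0.66 times the mean of replicates 2 and 3). The order depended on the scale. In TPM, replicate 1 had the highest motile sum (177, 142 and 166 TPM), and Foxj1 had 1.58 TPM in both replicates 1 and 3.

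**Figure D5:**
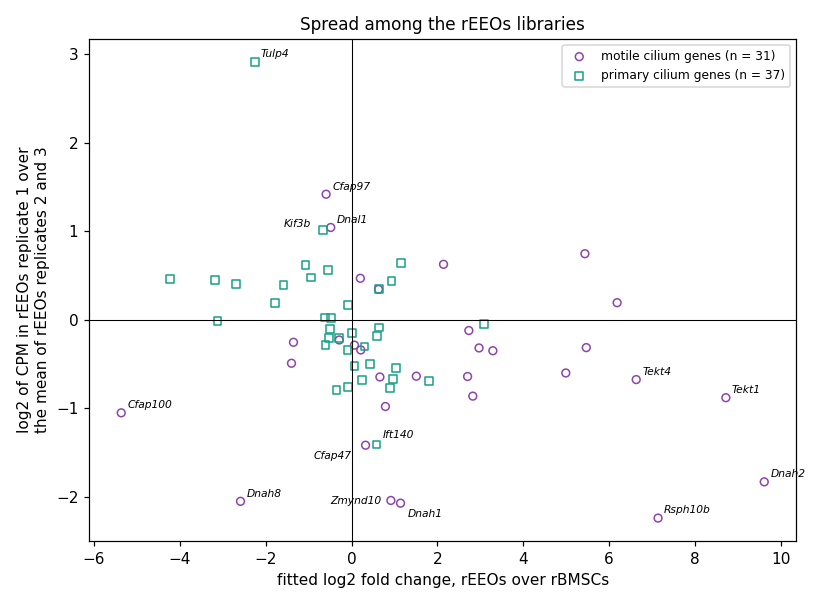
Tested genes, 31 motile and 37 of the 39 primary, each by its fitted log2 fold change between cell types (horizontal) and by the log2 ratio of CPM in rEEOs replicate 1 to the mean of replicates 2 and 3 (vertical), with motile genes as purple circles and primary genes as green squares. More motile genes lie below than above 0 on the vertical axis, Rsph10b, Dnah1, Zmynd10, Dnah8 and Dnah2 lowest, while Tulp4 stands alone at the top.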

How the data were processed

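RNA from 3 rEEOs and 3 rBMSCs samples was selected with oligo(dT) and read by the authors in single-end runs on a BGISEQ platform. Their methods and processing notes name TrimGalore, Bowtie2 2.2.5, RSEM 1.3.1 and the build Rnor_6.0. Strand is not given in the sources used here. The deposited table holds, per gene and library, an expected count made by the authors with RSEM, which shares reads between similar transcripts and is not whole for 7.31% to 8.44% of values, and a TPM and an FPKM from the authors. The copy holds 13728 genes, whose TPM sums to 81.3% to 82.7% of a library's total, and its last row has 23 of 27 fields with the values per sample complete.

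After rounding of the counts, the 10607 genes that reached 10 counts in 3 or more of the 6 libraries entered edgeR 4.0.16 in R 4.3.3 (TMM, quasi-likelihood test, cell type as the only term, Benjamini-Hochberg adjustment over all of them). The study used DESeq2, which is an alternative here. Standard errors are the log2 fold change divided by the square root of F. TPM levels were read as deposited, FPKM served only for relative transcript lengths. Where a cell type had 3 counts or fewer in every library, the fold is a bound against 3 counts in each library, which correspond to 0.181 to 0.262 CPM and cover counting error only. An exact permutation test of 3 against 3 libraries cannot go below p = 0.1, so the p-values rest on the model across genes.

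By gene ID, 84 of the 85 genes matched RefSeq genes of GRCr8, 6 under another current symbol (Ccdc114, Ccdc151, Ttc30a, Ttc30a1, Wdr34 and Wdr60), and 21 overlap another coding gene. GRCr8 coordinates belong to the promoters alone. The genes and lists were chosen with earlier results of these data known. Described in full were all motile regulators, in each other role the 2 genes with the highest mean TPM and those with the largest and smallest log2 fold change, in each class the 6 largest called changes without overlap and with at least 1 TPM, and the 2 largest called changes of each further list. Genes outside this rule are named to account for them, chosen after their values were seen, and the values of 2 primary cilium genes are not reported here. Alternatives were DESeq2 1.42.0 (Wald test, and its size factors in edgeR), library size only, filters of 1 or 50 counts, limma 3.58.1 on log2(TPM + 1) or log2(TPM + 0.1), removal of a trend on transcript length, a replicate block, leaving out each library, and log2 fold change thresholds of 1 and 2. Python 3.11.15, pandas 2.3.3, numpy 2.4.6 and matplotlib 3.10.9 were used.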

Additional observations from a re-analysis of the deposited data

How the results depend on the processing

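Of 855 values of 59 named genes under alternatives, 776 kept direction and side of the threshold, 39 lost the call, 21 gained it and 19 changed sign. The sign changes were all in genes not called. With library size only, the log2 fold change became 0.096 for Ccdc65, 0.018 for Ift43, 0.28 for Ift46 and 0.29 for Wdr34. With limma on log2(TPM + 1) it became -0.038 for Rfx3, -0.20 for Cfap36, -0.049 for Dnal4 and -0.046 for Ift20, and on log2(TPM + 0.1) it became -0.11, -0.21, -0.0505 and -0.047 for the same genes. With the length trend removed it became -0.20 for Cfap36, -0.045 for Dnal4 and -0.17 for Ift20. With each library left out, Cfap36 ranged from -0.11 (without rEEOs replicate 3) to 0.18, Ift46 from -0.32 to 0.14 (without rEEOs replicate 1) and Wdr34 from -0.25 to 0.038 (without rEEOs replicate 1), with 0.026 without rBMSCs replicate 2.

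The 16 motile genes higher in rEEOs became 10 with each limma setting and 4 with a filter of 50 counts, where 14 motile genes were left to test, and ranged from 14 to 20 as single libraries were left out. The 3 lower motile genes lay between 3 and 5, with 5 without rEEOs replicate 1. The 8 primary genes higher became 5 with each limma setting, 4 past a log2 fold change of 1 and 1 past 2, and ranged from 4 to 13 as single libraries were left out (4 without rBMSCs replicate 1 or 2, 13 without rEEOs replicate 1). The 13 lower became 6 with library size only, 7 past 1 and 4 past 2, and lay between 8 and 18 (8 without rBMSCs replicate 1 or 3). Of the further cilium genes, the 14 higher became 9 with each limma setting, 8 past 1 and 4 past 2 (10 to 17 with a library left out), and the 17 lower became 10 with library size only and 4 past 2 (10 to 25, with 10 without rBMSCs replicate 1 or 3). The cause of these moves was not tested, beyond the fewer genes left by a filter or threshold.

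For samples with the same number, deviations from the group means had r = 0.17, 0.19 and -0.17 (numbers 1, 2 and 3). These lay within the range of the other pairs, -0.29 to 0.26. So few values cannot show whether same-numbered samples were processed together, and the main test used no pairing. With a replicate block, 16 motile genes were higher and 3 lower, 6 primary genes higher and 9 lower, and 12 further genes higher and 18 lower.

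Depth leaves genes near 3 counts undecided, which holds for many motile genes. The small changes of Dnaaf5, Bbs1, Bbs2, Wdr60, Arl13b and Ttc21b lost their call under at least 2 alternatives.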
